A study of Mus musculus with 6 samples.

Results

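Erythroid priming is the low-level transcription of red cell genes in blood stem cells before any of them commits to the erythroid lineage. The genes described here are Gata1, Klf1, Epor, Car1, Car2, Slc4a1, Alas2, Hba-a1 and Zfpm1, taken by name from an FPKM table of 35275 genes. All 9 were found there once each, and all 9 had read counts in the count table of 18368 genes. Each library was made from the RNA of roughly 2000 haematopoietic stem cells (HSCs), sorted from the bone marrow of adult mice. The groups were 3 libraries from Ramp1 mutant mice, whose genotype label reads Ramp-/-, and 3 from Ramp1+/+ mice, called wild type. Ramp1 is the accessory subunit of the receptor for the neuropeptide CGRP, and the series title sets the comparison in work on pain-sensing nerves and HSC mobilization. The labels name neither the allele nor the strain, and do not say that libraries came from separate animals, so each p-value speaks only of the scatter among these 6 libraries.

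GATA1 is the zinc finger factor that switches on most red cell genes, and it works together with its cofactor FOG1, the product of Zfpm1. KLF1 binds CACCC boxes in the globin and other erythroid promoters, and the erythropoietin receptor (Epor) carries the survival signal of erythroid progenitors. Carbonic anhydrases, haem synthesis, globin and the anion exchanger band 3 (Slc4a1) belong to the maturing cell, although Car2 is also transcribed in stem and progenitor cells. In marrow HSCs such transcripts are found beside those of the megakaryocyte and myeloid programmes.

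Promoters were read from RefSeq for build GRCm38.p6, which is the mm10 assembly, as 300 bases from 250 before to 50 after the start. The start is that of the RefSeq entry and can differ from the end of the gene span given below. The printed Gata1 window lies wholly inside its gene span, and those of Klf1, Alas2 and Hba-a1 lie partly inside theirs. Of the 9 genes, 6 matched an entry by symbol: Gata1, Klf1, Epor, Alas2, Hba-a1 and Zfpm1. The 250 bases before the start are printed for Gata1 and Klf1, which varied together across the libraries, and for Alas2 and Hba-a1, which act in haem and globin synthesis. Capitals mark GATA motifs (AGATAA or AGATAG or TGATAA or TGATAG) and CACCC boxes (CACCC), each on either strand; no GATA motif overlapped a CACCC box in these sequences.
Gata1 (chrX:7967911-7968160, minus strand): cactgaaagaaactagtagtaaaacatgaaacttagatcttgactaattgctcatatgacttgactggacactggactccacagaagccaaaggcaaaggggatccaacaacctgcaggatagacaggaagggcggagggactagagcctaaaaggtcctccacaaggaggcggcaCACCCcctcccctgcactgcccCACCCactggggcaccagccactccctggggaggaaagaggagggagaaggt
Klf1 (chr8:84901732-84901981, plus strand): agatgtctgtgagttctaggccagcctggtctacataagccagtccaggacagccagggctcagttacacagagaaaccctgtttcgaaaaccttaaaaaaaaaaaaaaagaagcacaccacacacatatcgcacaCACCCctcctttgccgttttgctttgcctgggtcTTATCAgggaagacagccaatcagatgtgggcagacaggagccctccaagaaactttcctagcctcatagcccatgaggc
Alas2 (chrX:150547167-150547416, plus strand): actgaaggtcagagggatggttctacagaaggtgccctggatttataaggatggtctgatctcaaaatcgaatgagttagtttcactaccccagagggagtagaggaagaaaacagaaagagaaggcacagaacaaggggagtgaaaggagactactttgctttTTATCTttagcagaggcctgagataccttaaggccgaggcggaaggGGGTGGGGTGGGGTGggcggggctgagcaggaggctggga
Hba-a1 (chr11:32283422-32283671, plus strand): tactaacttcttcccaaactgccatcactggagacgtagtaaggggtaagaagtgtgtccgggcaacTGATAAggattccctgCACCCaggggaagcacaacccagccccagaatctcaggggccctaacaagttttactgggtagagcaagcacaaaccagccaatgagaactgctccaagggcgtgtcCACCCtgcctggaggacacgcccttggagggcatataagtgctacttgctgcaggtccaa
A GATA motif was found in 4 of the 6 windows, in Klf1, Epor, Alas2 and Hba-a1, and in 29.8% of all 32851 promoter windows. Its first base lay 80 bases before the RefSeq start in Klf1, 54 in Epor, 86 in Alas2 and 183 in Hba-a1. The Gata1 and Zfpm1 windows held none of these letters. A CACCC box was found in all 6 windows and in 57.5% of all promoter windows. These matches describe letters only and say nothing of binding.

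Reads counted in genes ranged between 22796771 and 26734561 per mutant library and between 23362286 and 25350325 per wild-type library. The targeted gene separated the groups, with 3.53, 2.66 and 1.35 FPKM of Ramp1 in mutant libraries against 91.4, 88.3 and 91.0 FPKM in wild-type libraries. FPKM divides a gene's reads by its length and by library depth, so levels of different genes can be set side by side. All 9 defining HSC markers (Kit, Ly6a, Slamf1, Procr, Mecom, Hlf, Fgd5, Mllt3 and Meis1) were above 0 in every library, and summed to 845 to 1078 FPKM in mutant and 853 to 1017 FPKM in wild-type libraries. Replicate 1 of each group carried Y-linked reads, 6137 in mutant and 6527 in wild type, against at most 2 in the other libraries, so replicate 1 differs in sex from replicates 2 and 3 in both groups.

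No member passed the adjusted threshold. edgeR's quasi-likelihood test with Benjamini-Hochberg adjustment over 14443 genes called 0 of the 9 at an adjusted p of 0.05, where 0.0208% of all genes tested were called. At an unadjusted p under 0.05 there were 3 of 9, against 3.99% of all genes tested. Slc4a1 and Hba-a1 were on the higher side in mutant HSCs, where 2.28% of all genes tested were, and Zfpm1 was on the lower side, where 1.7% were. DESeq2 on the same counts called 1 of 9, Slc4a1, where it called 0.265% of its genes. Fitted values were lower in mutant HSCs for 6 of the 9 genes (49.9% of all genes tested) and higher for 3 (50.1%). Their median log2 fold change was -0.15, beside 0.00 over all genes tested. The groups did not overlap for 1 of the 9, Slc4a1, with the mutant libraries above (5.99% of all genes tested), and for none with the mutant libraries below (4.32%); in either direction it was 10.3% of all genes tested. Slc4a1 was kept for testing, under a filter on low counts, only through the mutant group, so its place in these counts is no independent support. With 3 against 3 libraries an exact permutation test of a single gene cannot go below p = 0.1.

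**Figure D1:**
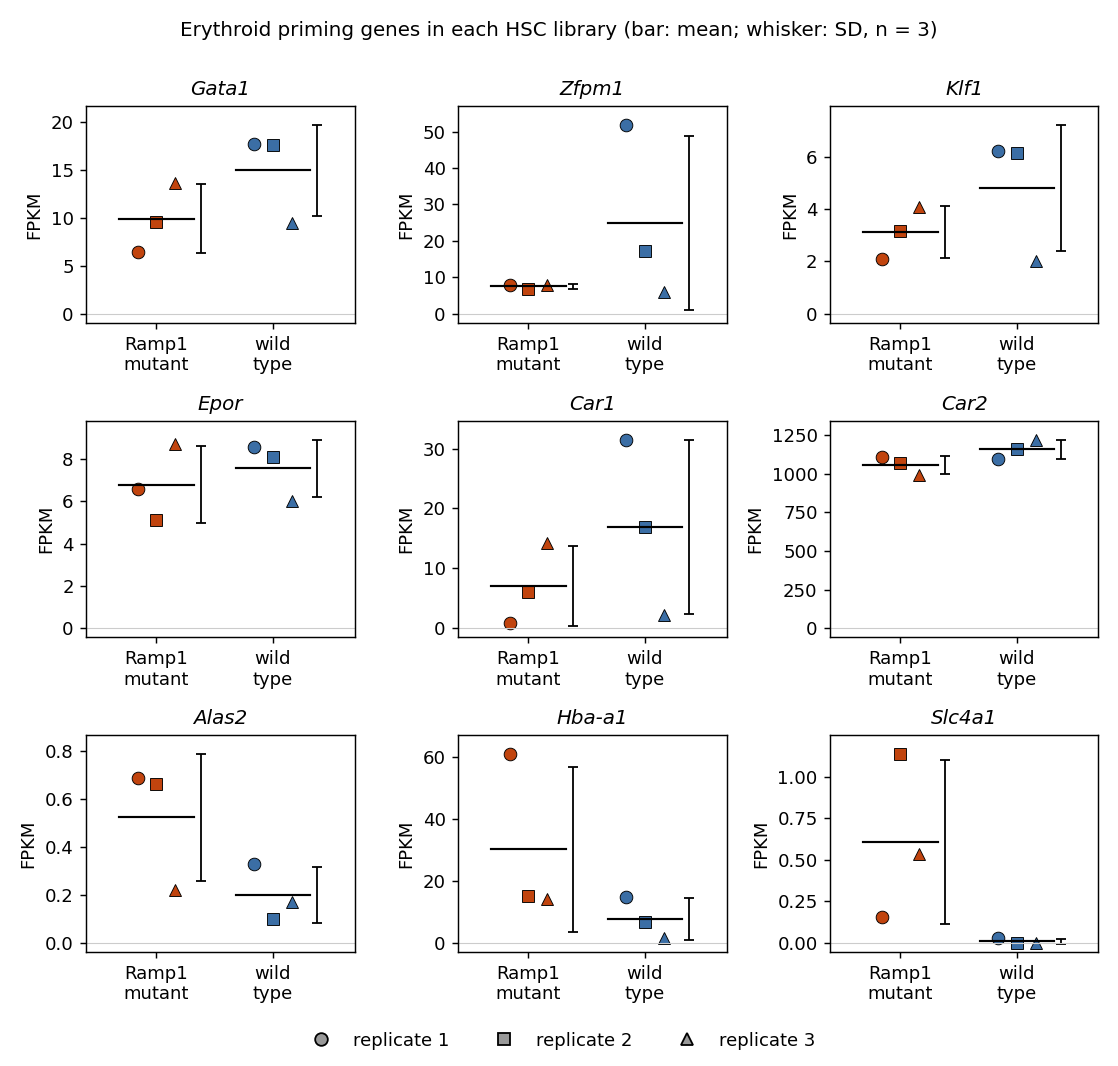
FPKM (vertical axis, linear, 1 scale per gene) of the 9 genes in Ramp1 mutant (left, orange) and wild-type (right, blue) HSC libraries; marker shapes give the replicate number, bars the mean and whiskers the SD (n = 3). The mutant values lie entirely above the wild-type values for Slc4a1, while the groups overlap for the other genes, and wild-type replicate 3 lies below the other wild-type libraries for Gata1, Klf1, Epor, Car1, Zfpm1 and Hba-a1.

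The transcription factors were present at low to moderate level, with values that were lower on average in mutant HSCs but overlapped between genotypes. Gata1 (ENSMUSG00000031162, mm10 chromosome X, 7959260 to 7978071) had 6.48, 9.52 and 13.7 FPKM in mutant libraries against 17.8, 17.6 and 9.47 FPKM in wild-type libraries. The 2 highest values were wild-type replicates 1 and 2, but wild-type replicate 3 lay below mutant replicates 2 and 3, so the groups overlapped. The means were 9.89 ± 3.61 FPKM in mutant and 14.95 ± 4.75 FPKM in wild type (SD, n = 3 each), a log2 fold change of -0.59 (SE 0.34; edgeR adjusted p = 0.999). In bulk libraries, fewer cells of a type and less RNA per cell cannot be told apart.

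Klf1 (ENSMUSG00000054191, chromosome 8, 84901928 to 84905295) had 2.09, 3.17 and 4.07 FPKM in mutant libraries against 6.22, 6.16 and 2.01 FPKM in wild-type libraries. Its order of libraries was close to that of Gata1: wild-type replicates 1 and 2 were high, and wild-type replicate 3 was the lowest of all 6. The log2 fold change was -0.62 (SE 0.47; edgeR adjusted p = 0.999). Counts were modest, at 73 to 155 reads in mutant and 72 to 242 reads in wild-type libraries.

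Zfpm1 (ENSMUSG00000049577, chromosome 8, 122282141 to 122337251), which encodes FOG1, had 7.89, 6.71 and 7.71 FPKM in mutant libraries against 51.8, 17.1 and 5.97 FPKM in wild-type libraries. The mutant libraries were close to each other, with a coefficient of variation of 8.59%, whereas the wild-type libraries spread over a coefficient of variation of 95.7%. The read counts behind this were 610, 608 and 649 in mutant and 4449, 1445 and 473 in wild type, so the wild-type libraries differ by far more than counting error. The log2 fold change was -1.74 (SE 0.64; unadjusted p = 0.0273, edgeR adjusted p = 0.999). It rests largely on wild-type replicate 1, without which it was -0.66. An annotated read-through gene, Gm20388, spans Zfpm1 on the same strand and was not analysed here.

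Epor (ENSMUSG00000006235, chromosome 9, 21958899 to 21963576) varied least among the low-level members. It had 6.57, 5.09 and 8.73 FPKM in mutant libraries against 8.58, 8.09 and 6.01 FPKM in wild-type libraries, and the highest library of all was mutant replicate 3. Its log2 fold change was -0.15 (SE 0.26; edgeR adjusted p = 0.999), and without mutant replicate 2 it was 0.016. All wild-type values lay within the range of the mutant values.

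The 2 carbonic anhydrase genes lie on chromosome 3, 78.1 kb apart and on opposite strands, and behaved unlike each other. Both encode cytosolic enzymes that interconvert carbon dioxide and bicarbonate; Car1 is a marker of erythroid progenitors. Car2 (ENSMUSG00000027562, 14886426 to 14900769) had 1110, 1071 and 994 FPKM in mutant libraries against 1097, 1164 and 1221 FPKM in wild-type libraries. It ranked 18 by mean FPKM among the 35275 genes, and its within-group SD on the log2(FPKM + 0.1) scale was 0.08, where the median over all genes tested was 0.23. The log2 fold change was -0.13 (SE 0.08; edgeR adjusted p = 0.999).

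Car1 (ENSMUSG00000027556, 14766216 to 14808368) had 0.808, 6.08 and 14.2 FPKM in mutant libraries against 31.5, 17.0 and 2.26 FPKM in wild-type libraries. Both groups thus held a library near the bottom and another well above it, and the highest library stood 38.9-fold over the lowest. The within-group SD was 2.0 on the log2(FPKM + 0.1) scale, larger than that of 99.6% of all genes tested. The log2 fold change was -1.25 (SE 1.03; edgeR adjusted p = 0.999), so the difference between genotypes was about as large as its own error. Leaving out replicate 1 of both groups gave 0.066.

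Alas2 and Hba-a1, of haem and globin synthesis, had higher means in mutant libraries without passing the test. Alas2 (ENSMUSG00000025270, chromosome X, 150547375 to 150570638), the erythroid form of the first enzyme of haem synthesis, had 0.689, 0.661 and 0.218 FPKM in mutant libraries against 0.329, 0.0986 and 0.168 FPKM in wild-type libraries. These levels rest on 32, 36 and 11 reads in mutant and 17, 5 and 8 reads in wild type. Mutant replicates 1 and 2 were above all wild-type libraries and mutant replicate 3 was among them. The log2 fold change was 1.39 (SE 0.69; edgeR adjusted p = 0.999). Apex2, with 317 to 530 reads in mutant and 525 to 529 reads in wild-type libraries, overlaps Alas2 on the opposite strand, and no source used here gives the strand setting of the counting.

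Hba-a1 (ENSMUSG00000069919, chromosome 11, 32283511 to 32284465), an adult alpha globin gene, had 61.0, 15.2 and 14.2 FPKM in mutant libraries against 14.8, 6.61 and 1.47 FPKM in wild-type libraries. Mutant replicate 1 stood well above the rest, and the groups overlapped only between mutant replicate 3 and wild-type replicate 1. The log2 fold change was 1.96 (SE 0.83; unadjusted p = 0.0463, edgeR adjusted p = 0.999), and it was 0.96 without mutant replicate 1. Its copy Hba-a2 follows it on the same chromosome; their GENCODE transcripts share an identical stretch of 415 bases and their promoter windows one of 297 of 300 bases. Reads from the pair may therefore have been split or lost in counting, and the level of either copy is uncertain. Hba-a2 had 25.4, 0.810 and 1.82 FPKM in mutant libraries against 4.27, 1.31 and 0.232 FPKM in wild-type libraries.

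Slc4a1 (ENSMUSG00000006574, chromosome 11, 102348824 to 102366203) showed the clearest separation of the 9 genes, at a very low level. Band 3, its product, exchanges chloride for bicarbonate across the red cell membrane and anchors the membrane skeleton. It had 16, 138 and 60 reads in mutant libraries against 3, 0 and 0 reads in wild-type libraries, or 0.154, 1.14 and 0.532 FPKM against 0.0260, 0 and 0 FPKM. A count of 0 allows up to 3 reads, which is 0.0265 FPKM in wild-type replicate 2 and 0.0283 FPKM in wild-type replicate 3. Every mutant library was above every wild-type library, and the mutant libraries differed among themselves severalfold. Summed over the libraries and scaled by counted reads, the mutant total of 214 reads was 70.6 times the wild-type total of 3 reads (exact 95% interval 23.8 to 345, for counting error only).

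The fitted log2 fold change of Slc4a1 was 5.94 (SE 1.22; edgeR adjusted p = 0.705), a value that depends on how the fit treats libraries at 0. DESeq2 gave 6.11 (SE 1.25; adjusted p = 0.00118), and the authors' deposited table lists 6.11 with an adjusted p of 9.43e-04 and calls 0.231% of its genes. All 3 use the same reads and are not independent. The gene passed the filter on low counts only through the mutant group, and the count table itself lists only genes with reads in mutant replicate 1 or 2. On FPKM, exact permutation (two-sided) gave p = 0.1, as low as 3 against 3 can go. The edgeR adjusted p lay between 0.292 and 1 when single libraries were left out.

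**Figure D2:**
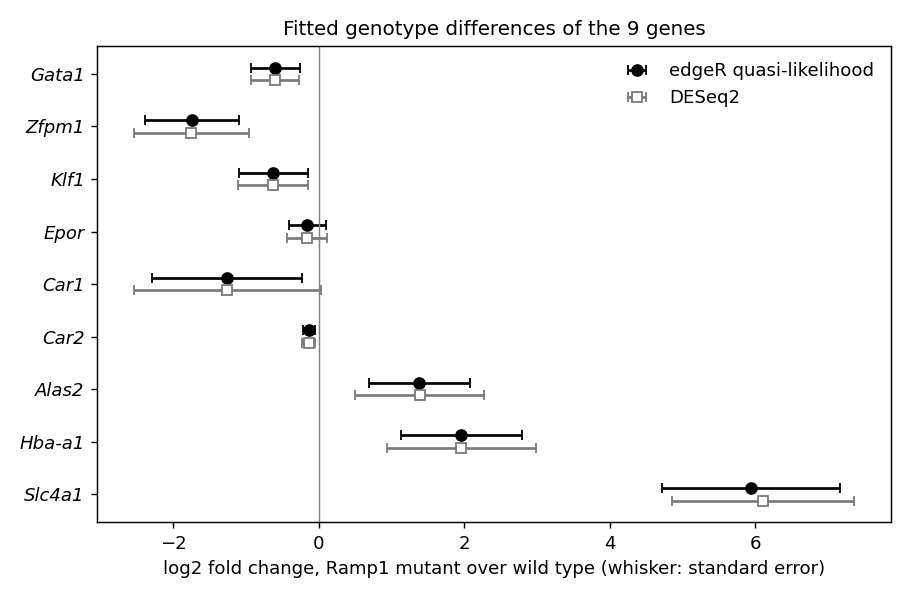
Log2 fold change of Ramp1 mutant over wild type (horizontal axis) for the 9 genes, with whiskers of 1 standard error; filled circles are edgeR and open squares DESeq2. The estimates run from -1.74 for Zfpm1 to 5.94 for Slc4a1 in edgeR, and DESeq2 gives -1.75 and 6.11 for the same genes.

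Across the 6 libraries the members fell into patterns that crossed the genotypes. Gata1, Klf1 and Car1 varied together: Pearson's r of log2(FPKM + 0.1) was 0.94 to 0.96 for the 3 pairs, and 0.93 to 0.98 for the deviations from the group means. Epor and Zfpm1 went with them more loosely, at 0.63 or more for all 10 pairs of the 5 genes (0.59 or more for the deviations). For the deviations, however, the highest r of Zfpm1 with any member was 0.82, with Hba-a1, a pair whose r over the 6 libraries was 0.12. Against Slc4a1, Alas2 and Hba-a1, the values of r for Gata1, Klf1 and Car1 lay between -0.66 and 0.03, and between -0.44 and 0.61 for the deviations from the group means, so the sign of several pairs depended on the measure. These are descriptions over 6 libraries that share their preparation, and genes within a library are not independent.

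Over the 6 libraries r of Car2 was -0.11 with Gata1, -0.26 with Klf1 and -0.33 with Car1. For the deviations from the group means, within the narrow range of Car2, it was -0.91 with Gata1, -0.83 with Klf1 and -0.92 with Car1. The library with least Car1 and Gata1, mutant replicate 1, was the one with most Hba-a1 and Alas2. Wild-type replicate 3 was low both for the transcription factors and for Hba-a1. Slc4a1 was highest in mutant replicate 2, where Hba-a1 (15.2 FPKM) was close to wild-type replicate 1 (14.8 FPKM) and mutant replicate 3 (14.2 FPKM). For Slc4a1 with Hba-a1, r was 0.45 over the 6 libraries and -0.41 for the deviations from the group means. Without replicate 1 of both groups, the pair of libraries with Y-linked reads, the log2 fold changes of Gata1 (-0.22), Klf1 (-0.18) and Zfpm1 (-0.68) lay nearer to 0. Those of Hba-a1 (1.85) and Alas2 (1.72) stayed well above 0, that of Slc4a1 was 9.57, and no member passed the edgeR threshold in these 4 libraries. With all 6 libraries and Y-linked reads as a covariate, the log2 fold change was -0.63 for Gata1, -0.64 for Klf1 and -1.35 for Zfpm1.

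**Figure D3:**
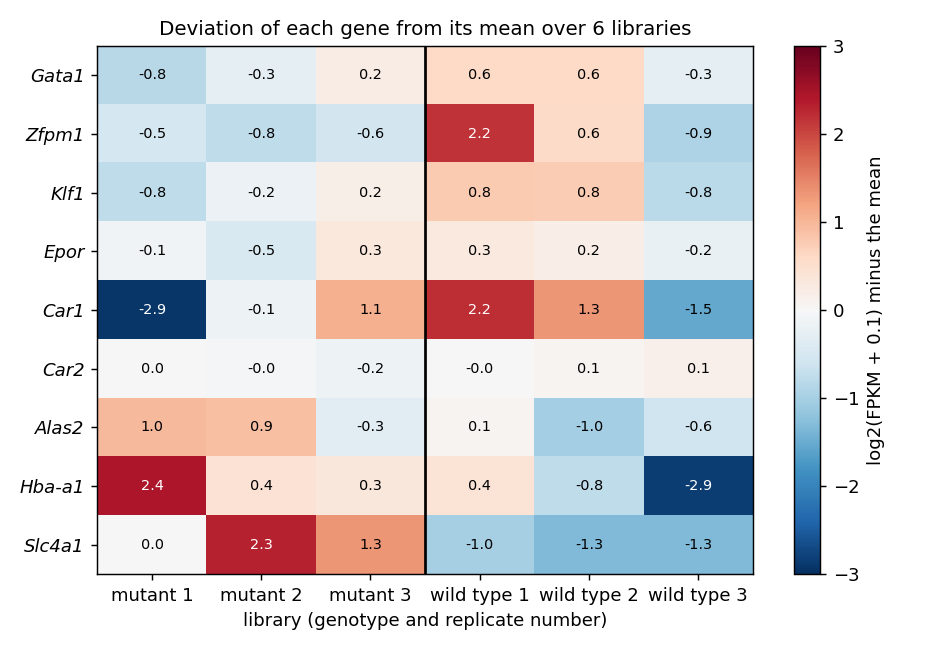
Deviation of log2(FPKM + 0.1) from the mean over the 6 libraries (colour and printed value) for each gene (rows) in the mutant (columns left of the line) and wild-type libraries (right). Gata1, Klf1 and Car1 share a profile with wild-type replicates 1 and 2 high (Car1 2.21 and 1.32) and mutant replicate 1 low (Car1 -2.91), while Hba-a1 is highest in mutant replicate 1 (2.43).

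Genes of the same programmes outside the 9 gave no call in edgeR. Of 8 other globin genes and globin chaperones listed, 3 were tested and none passed; all 3 had higher values in mutant HSCs, and their median log2 fold change was 2.24 (0.00 over all genes tested). Hbb-bt, an adult beta globin gene, had 56.6, 17.8 and 24.0 FPKM in mutant libraries against 0.673, 17.0 and 0 FPKM in wild-type libraries. Its neighbour copy Hbb-bs had 55.9, 8.13 and 10.8 FPKM in mutant libraries against 19.97, 8.01 and 0.605 FPKM in wild-type libraries. The 2 transcripts share an identical stretch of 430 bases, so the split between them is uncertain. Mutant replicate 1 was the highest library for Hba-a1, Hba-a2, Hbb-bt and Hbb-bs alike, and wild-type replicate 3 the lowest.

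Of 20 red cell membrane and skeleton genes, 17 were tested and 0 passed, 9 with higher and 8 with lower values in mutant HSCs (median log2 fold change 0.03). Among the abundant ones, Epb41 (protein 4.1) had 39.3 to 48.8 FPKM in mutant and 39.1 to 48.9 FPKM in wild-type libraries. Among the erythroid-restricted ones, picked out after their values were seen, Sptb (beta spectrin) had 19, 95 and 27 reads in mutant libraries against 13, 3 and 0 reads in wild-type libraries. Since it was picked for these counts, they are given as a description with no test. Epb42 (protein 4.2), which binds band 3, had 1.35, 2.12 and 0.607 FPKM in mutant libraries against 0.652, 0.889 and 1.11 FPKM in wild-type libraries, so these groups overlapped.

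**Figure D4:**
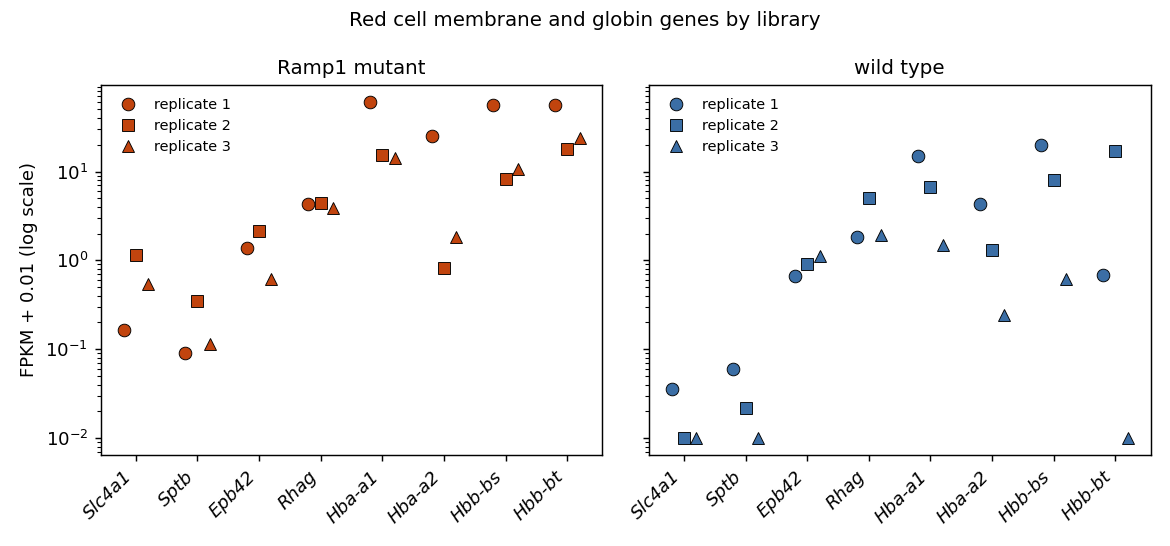
FPKM plus 0.01 on a log axis for 4 red cell membrane genes and 4 globin genes in the mutant (left panel) and wild-type libraries (right panel); marker shapes give the replicate number, and points at 0.01 are libraries at 0. Slc4a1 reaches 1.14 FPKM in mutant replicate 2 and lies at or below 0.0260 FPKM in the wild-type libraries, while Rhag, chosen for contrast after its values were seen, overlaps between 3.89 and 4.37 FPKM in mutant and 1.80 and 5.09 FPKM in wild-type libraries.

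Of 12 genes of haem synthesis besides Alas2, 11 were tested and 0 passed, 4 with higher and 7 with lower values (median log2 fold change -0.05). Urod (uroporphyrinogen decarboxylase) had 58.1 to 66.3 FPKM in mutant and 61.0 to 68.1 FPKM in wild-type libraries. This level contrasts with under 1 FPKM of Alas2 in every library. Ppox (protoporphyrinogen oxidase), picked out after its values were seen, had 2.42, 2.87 and 3.29 FPKM in mutant libraries against 4.27, 5.81 and 3.93 FPKM in wild-type libraries. Every mutant library was thus below every wild-type library, as for 4.32% of all genes tested. It was the only 1 of the 11 whose groups did not overlap, where 10.3% of all genes tested did not in either direction. Of 9 genes of iron uptake and mitochondrial import, all were tested and 0 passed, 4 higher and 5 lower, with a median log2 fold change of 0.00.

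Of 20 listed transcription factors of the GATA1 and SCL complexes, 19 were tested and 0 passed, 4 with higher and 15 with lower values in mutant HSCs (median log2 fold change -0.07, beside 49.9% lower over all genes tested). Gata2, which GATA1 replaces during erythroid maturation, had 118 to 147 FPKM in mutant and 126 to 137 FPKM in wild-type libraries and was thus well above Gata1 per length. Lmo2, a bridging subunit of the complex, had 473 to 698 FPKM in mutant and 540 to 656 FPKM in wild-type libraries. Sox6, a repressor of embryonic globin genes picked out after its values were seen, had 10.9, 17.3 and 14.0 FPKM in mutant libraries against 34.0, 15.7 and 23.4 FPKM in wild-type libraries, and the groups overlapped. Of 9 listed myeloid factors and targets that oppose GATA1, 7 were tested and 0 passed, 3 higher and 4 lower. Spi1 (PU.1), the best known antagonist, had 38.8 to 47.8 FPKM in mutant and 43.3 to 52.1 FPKM in wild-type libraries.

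Of 18 genes of erythropoietin receptor signalling, all were tested and 0 passed, 10 higher and 8 lower (median log2 fold change 0.09). At an unadjusted edgeR p under 0.05, 2 of the 18 were higher (2.28% of all genes tested) and 0 were lower (1.7%). The groups did not overlap for 1 of the 18, where they did not for 10.3% of all genes tested. For Stat5a, a transcription factor that the receptor activates, the log2 fold change was -0.08 (SE 0.13). For Kit, the stem cell factor receptor, it was -0.07 (SE 0.20). Of 21 early erythroid progenitor genes, 20 were tested and 0 passed in edgeR, 10 higher and 10 lower (median log2 fold change -0.02). DESeq2 called 1 of them, a gene not reported here, where it called 0.265% of its genes.

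In the carbonic anhydrase family 10 of 15 genes were tested and 0 passed, Car1 and Car2 included, with 9 lower and 1 higher. Beside Car2, the members with most FPKM were Car1, Car3 and Car9. Car3 had 5.46 to 11.6 FPKM in mutant and 7.28 to 13.5 FPKM in wild-type libraries. Of the GATA and FOG families 4 of 8 genes were tested, and Gata3 had 10.7 to 12.9 FPKM in mutant and 10.5 to 10.8 FPKM in wild-type libraries.

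Markers of other cells varied between libraries as well, and their part in the values above was not tested. Neutrophil markers (6 genes) summed to 165, 791 and 1055 FPKM in mutant libraries against 31.15, 288 and 754 FPKM in wild-type libraries, with Elane at 0 in at least 1 library. In the wider neutrophil list of 13 genes, all tested, 12 had higher and 1 had lower values in mutant HSCs and 0 passed (median log2 fold change 0.67). Megakaryocyte and platelet markers (8 genes) summed to 213, 128 and 160 FPKM in mutant libraries against 207, 228 and 159 FPKM in wild-type libraries. Mast cell and basophil markers (5 genes), a lineage that also uses Gata1, summed to at most 4.10 FPKM in mutant and 3.23 FPKM in wild-type libraries, with 2 of the 5 at 0 in every library. The 2 eosinophil markers were at or below 0.134 FPKM in total. Macrophage markers (5 genes) summed to 11.1 to 34.2 FPKM in mutant and 27.2 to 31.3 FPKM in wild-type libraries. B cell markers (3 genes) summed to 34.3 to 48.5 FPKM in mutant and 37.7 to 42.4 FPKM in wild-type libraries, and T and NK cell markers (3 genes) to 28.7 to 45.1 FPKM in mutant and 35.9 to 62.6 FPKM in wild-type libraries. The 11 erythroid markers summed to 213, 57.5 and 69.9 FPKM in mutant libraries against 57.5, 53.1 and 12.5 FPKM in wild-type libraries, and 4 of the 11, Hbb-bt and Slc4a1 among them, were at 0 in at least 1 library.

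Among 10742 named genes with a mean of at least 1 FPKM, the profiles closest to Gata1 over the 6 libraries were those of Nolc1, Coq5, Fam203a, Bop1 and Cdc123, with Pearson's r of 0.986 to 0.997. Among the profiles closest to Slc4a1 were those of Lamtor5, Cd63, Zswim7 and Tmed5, with r of 0.972 to 0.983. These values describe likeness over 6 libraries only.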

How the data were processed

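RNA-seq libraries from sorted HSCs of Ramp1 mutant and wild-type mice were analysed from 2 tables deposited by the authors. Tools listed in the submitters' processing notes, without role or order, are DESeq2, HTSeq 0.6.1, STAR and CASAVA, with build mm10. Per the file headers, the authors deposited raw read counts, FPKM, size-factor-normalized values (a signal, not used here), log2 fold changes and p-values. Every gene in the count table has reads in mutant replicate 1 or 2; 2054 further genes with FPKM above 0 in some library are outside it, so genes read only in other libraries were not tested.

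Counts were fitted in edgeR 4.0.16 (R 4.3.3; filterByExpr, then TMM) and tested by quasi-likelihood, two-sided, with Benjamini-Hochberg adjustment over 14443 genes. DESeq2 1.42.0 and limma 3.58.1 were alternatives. On simulated counts for mutant minus wild type over 14443 genes, edgeR recovered 6% of genes changed 1.5-fold. The share was 44% for 2-fold, 84% for 4-fold and 86% for 8-fold. The changed genes were drawn at random from all genes tested, so these shares are not those for the members. The within-group SD of log2(FPKM + 0.1) exceeded that of 6.05% of genes tested for Car2 and 65.7% for Epor. For the other members it exceeded that of 81.7% to 99.6%. Each standard error was derived from the fold change and its F statistic (estimate over root F). Intervals and floors (3 reads) cover counting error only.

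Members and lists were chosen with earlier results of these data known. Of 232 list symbols, 3 were matched by gene identifier and 1 had no match. Named genes were the members, Ramp1, genes among the 4 highest by mean FPKM of each list, list genes called by edgeR or DESeq2, and the 5 profiles nearest to Gata1 and Slc4a1; others are marked as chosen after their values were seen. The Y-linked genes were summed. Some genes that this rule names are not reported here.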

Additional observations from a re-analysis of the deposited data

How the results depend on the processing

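Of 180 fitted values of the 9 members under 20 alternatives each, 178 kept their direction. Car1 turned to 0.0655 when both libraries with Y-linked reads were left out, and Epor to 0.0156 without mutant replicate 2 (-0.39 to 0.0156 over single libraries left out). With both libraries with Y-linked reads left out, Gata1 was at -0.22 and Klf1 at -0.18. With Y-linked reads as a covariate instead, Gata1 was at -0.63 and Klf1 at -0.64. DESeq2 called 44 genes in place of 3 and 1 member in place of 0, Slc4a1 being the only member newly past the threshold; the cause was not tested. Without single libraries the count of genes was 2 to 6, highest without mutant replicate 2, and the count of members 0 in each case. With 0.1 and 1 added to FPKM the limma value of Slc4a1 was 2.43 and 0.63, since its level lies near the pseudocount. Whether the replicate numbers pair the libraries was not settled. Deviations of same-numbered libraries correlated at 0.138, 0.002 and -0.094, where those of differently numbered libraries correlated at -0.133 to 0.146. With the replicate block 2 genes and 0 members passed. The block lowered the SE of Hba-a1 from 0.83 to 0.42 and raised that of Car1 from 1.03 to 1.67. Over the other settings run (scalings, filters, limma-voom, limma on FPKM, a robust fit and a covariate for Y-linked reads) 0 members passed. Depth limits Slc4a1 and Alas2 most, with 0 to 36 reads in 10 of their 12 library values.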
